A study of Mus musculus with 44 samples.

Results

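RNA of preGTS1, a mouse medulloblastoma line, was compared between cells given DOX and cells given the solvent DMSO. The members were the 3 preGTS1 samples titled DOX and the 3 titled DMSO in the table of treated lines, which make 6 of the 44 samples of the series. The other samples used here were the 6 RNA samples of GTML3, a GTML line also given DMSO or DOX (3 DMSO, 3 DOX), and the 4 ATAC-seq libraries of preGTS1 (2 DMSO, 2 DOX). Whether both lines had the same dose and duration is not given. The labels give the tumor as the source of preGTS1 and no allele, passage, dose or duration, and they do not say whether replicates were separate cultures. The p-values then rest on the spread among these samples only, and that spread may be technical. In published work on this model, GTML mice carry human MYCN under a tetracycline-responsive promoter that a transactivator under the Glt1 (Slc1a2) promoter drives, and doxycycline switches MYCN off. Which alleles preGTS1 carries is not given in the sources used here, and whatever it carries is shared by both arms.

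MYCN belongs to the MYC family of transcription factors. With its partner MAX it binds the DNA sequence CACGTG, the E-box, and is known for raising genes of ribosome building, nucleotide supply and cell division, while MXD proteins, MNT and MGA take the same partner and oppose it. MYCN is the MYC protein of the developing cerebellum, where it keeps granule neuron progenitors dividing, and its gene is amplified in some medulloblastomas.

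Values are log2 CPM as the authors deposited them, where CPM scales reads to an effective library size. CPM is not divided by gene length, so levels are compared between samples of a gene and not between genes. The DMSO libraries held 23.967 to 24.672 M reads and the DOX libraries 16.371 to 17.509 M, and replicate pairs differed by a chi-square of 9.833 to 35.88 per degree of freedom, so no pair agreed within sampling noise. The 10 genes with most reads took 7.31 to 9.38% of the reads under DMSO and 13.16 to 17.19% under DOX. Among them Malat1, a nuclear long noncoding RNA, took 0.31 to 0.34% and then 2.55 to 2.78% (log2 difference 2.84), and Rn7sk, the RNA that holds the elongation factor P-TEFb inactive, 0.73 to 1.14% and then 2.46 to 2.82% (1.42). Of 15926 genes, 10873 passed the test (limma, Benjamini-Hochberg adjusted p under 0.05), which is 68.3%, with 5499 higher (34.5%) and 5374 lower under DOX (33.7%). At least 2-fold changes, a log2 difference of 1 or more, were called up in 2933 genes (18.4%) and down in 2561 (16.1%), and 964 and 720 genes reached 4-fold. When the reads were scaled to each library's total instead, the median over all genes moved up by 0.21 and 60.7% of the calls were increases (6651 up and 4311 down) against 50.6% here. With that scaling 10 decreases named below no longer passed, those of Mycl, Gnl3l, Ubtf, Mpg, mt-Cytb, mt-Nd5, Becn1, Kif5b, Sag and Gja1. RNA per cell was not measured, and fewer cells of a type and less RNA per cell cannot be told apart.

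Mycn was lower in all DOX samples. It stood at 10.54, 10.45 and 10.91 log2 CPM under DMSO and at 5.54, 6.13 and 5.65 under DOX, and the groups were far apart (log2 difference -4.86, SE 0.15, limma adjusted p = 2.22e-12). Whether reads of a MYCN transgene are part of this value cannot be told from gene totals. Mycs, an intronless MYC relative, went from 5.55, 5.58 and 6.23 to 0.23, 0.32 and 0.36, and whether its reads are its own or come from MYCN transcripts cannot be told from gene totals. Myc itself moved the other way. It had 21, 32 and 31 reads under DMSO and 333, 302 and 320 under DOX, which is -0.04, 0.58 and 0.60 against 4.20, 4.22 and 4.28 log2 CPM (3.85, SE 0.553, adjusted p = 1.4e-05). Mycl, the remaining family member, fell by 0.39 (SE 0.0828, adjusted p = 0.000648), and Max, the shared partner, did not pass the test (-0.08, SE 0.119, adjusted p = 0.545).

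The opposing factors split. Mxd4 was at 6.11, 5.96 and 5.93 under DMSO and 7.88, 8.06 and 7.78 under DOX (1.91, SE 0.085, adjusted p = 1.77e-11), and Mxd1 rose by 1.36 and Mxi1 by 0.42. Mxd3, the MXD gene that is known to be expressed in dividing cells, went the other way, from 6.05 in every DMSO sample to 3.48, 3.73 and 3.64 (-2.43, SE 0.098, adjusted p = 5.63e-12). Mga, a MAX partner found in a Polycomb complex, fell by 0.75. Mlx, a network gene that is not among the opposing factors named above, fell by 0.69. Of the 14 network genes, 4 passed upward (34.5% of all genes did) and 7 downward (33.7% of all genes), and 5 and 5 with total-read scaling.

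**Figure D1:**
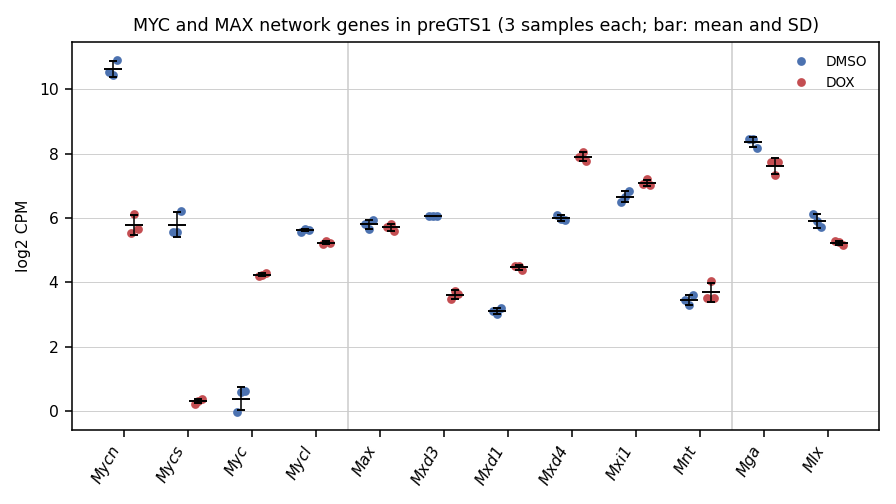
Levels of 12 MYC and MAX network genes in log2 CPM (vertical axis) in the 3 DMSO (blue) and 3 DOX (red) samples of preGTS1, with the mean and SD as black bars. Mycn, Mycs and Mxd3 lie lower in all DOX samples, and Myc, Mxd1 and Mxd4 lie higher in all DOX samples.

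Ribosome building genes fell together. All 40 ribosome assembly factors passed the test downward, 38 of them at least 2-fold (16.1% of all genes fell that far), with a median of -2.11 against 0.04 over all genes. Dkc1, the pseudouridine synthase that modifies ribosomal RNA, went from 8.37, 8.43 and 8.37 to 4.98, 4.68 and 5.02 (-3.50, SE 0.088, adjusted p = 7.35e-14). The nucleolar chaperone Npm1 went from 11.61, 11.67 and 11.61 to 8.65, 8.18 and 8.36 (-3.23, SE 0.113). The groups of both genes were apart by more than 2 log2 units in every pair of samples. Nolc1, a nucleolar scaffold, fell by 3.42, nucleolin (Ncl) fell by 2.43 and the methyltransferase Fbl fell by 2.29, and the smallest drop was in Gnl3l (-0.42). The polymerases that transcribe ribosomal RNA and transfer RNA followed with smaller changes. Of 15 RNA polymerase I genes, 14 fell (median -1.07), led by Cd3eap (-2.35), Taf1d (-2.28) and Polr1b (-2.10), while the architectural factor Ubtf, which opens ribosomal DNA, fell only by 0.21 (SE 0.0707, adjusted p = 0.0141). Of 21 RNA polymerase III genes, 16 fell and 2 rose. Polr3g, the subunit of the form of the enzyme seen in stem and tumor cells, fell by 2.92 (reads 759, 776 and 625 to 100, 59 and 71), its alternative Polr3gl was at 0.08 (adjusted p = 0.621), and Maf1, the repressor of the enzyme, rose by 0.63 (SE 0.0813, adjusted p = 4.59e-06).

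The ribosomal proteins themselves had a smaller median change. Of 79 cytosolic ribosomal protein genes, 70 fell and 1 rose (median -0.99), from Rps25 at -2.08 to Rpl24 at 0.40, which did not pass without DOX replicate 3 (adjusted p = 0.0606). Reads of these genes can be shared with their many processed pseudogenes. Their summed level was 75695.3 to 81852.1 CPM under DMSO and 38488.9 to 42152.5 under DOX. Mitochondrial ribosomal proteins had 74 of 75 down (median -0.97), translation factors 45 of 51 with 1 up (median -1.13), and cytosolic transfer RNA synthetases 18 of 20 (median -0.94). Eif5a, the hypusine-bearing elongation factor, fell by 2.34 and the cap-binding Eif4e by 1.68. Eef2, which moves the ribosome along the message, stood at 12.29, 12.26 and 12.43 and at 12.23, 12.43 and 12.17, and its groups overlapped (-0.05, SE 0.0944, adjusted p = 0.667), whereas its kinase Eef2k, which slows elongation, was the 1 translation factor list member that rose (0.77, SE 0.0954).

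Enzymes that supply building blocks were next. Of 29 nucleotide synthesis genes, 27 fell and 1 rose (Tk2, mitochondrial thymidine kinase, 0.44), with a median of -2.21. The thymidine kinase of dividing cells, Tk1, went from 6.72, 6.66 and 6.89 to 3.05, 2.86 and 2.71 (-3.89, SE 0.115), the ribonucleotide reductase subunit Rrm2 fell by 3.82, thymidylate synthase Tyms by 3.59, and Cad, which starts pyrimidine synthesis, by 2.83. Serine, glycine and one-carbon enzymes had 15 of 19 down and 3 up. The cytosolic hydroxymethyltransferase Shmt1 was at 8.49, 8.54 and 8.60 under DMSO and 4.29, 3.99 and 4.13 under DOX (-4.41, SE 0.0906, adjusted p = 2.12e-14), its mitochondrial counterpart Shmt2 fell by 1.61, and Sardh, which breaks down sarcosine, rose by 2.68. Of 14 polyamine genes 8 fell (57.1%, against 33.7% of all genes) and 4 rose (28.6%, against 34.5%). The spermidine synthase Srm was at -2.84 and the rate-limiting Odc1 at -1.33, while the oxidase Smox was at 1.87, Sat2 at 1.92 and Azin2, which frees Odc1 from its inhibitor antizyme, at 1.99.

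Promoter sequences were looked up for the lists that moved together. Windows from 250 bases before to 50 after the transcription start were taken from RefSeq, build GRCm38.p6. They matched 10604 of the 15926 genes with 13587 windows, and each motif was searched on both strands. The E-box CACGTG was in 9.9% of all windows. It was in 8 of 39 windows of ribosome assembly factors (20.5%) and in 7 of 30 of nucleotide synthesis genes (23.3%). Cell division lists, described below, had it in 6 of 39 DNA replication windows (15.4%) and in 2 of 38 mitosis windows (5.3%). The E-box was thus not more frequent in every list that fell. It was in 13.3% of the windows of genes called down at least 2-fold and in 6.2% of those called up. Of windows of genes not called, 384 of 3747 held it, close to the share of all windows. Windows shown here and below were picked by size of RNA change. A single chromosome was left out of the choice. The windows come from list members with at least 10 CPM in the higher group and a single window, which held the motif searched for. Here they are from 2 ribosome assembly genes that fell by 2.36 (Utp20, a component of the small-subunit processome) and 2.32 (Pno1, needed to mature the small subunit). The E-box (capitals) starts at base 38 after the transcription start in both. A match is a description of letters and not evidence of binding.
Utp20, chr10:88826765-88827064, minus strand, GRCm38.p6: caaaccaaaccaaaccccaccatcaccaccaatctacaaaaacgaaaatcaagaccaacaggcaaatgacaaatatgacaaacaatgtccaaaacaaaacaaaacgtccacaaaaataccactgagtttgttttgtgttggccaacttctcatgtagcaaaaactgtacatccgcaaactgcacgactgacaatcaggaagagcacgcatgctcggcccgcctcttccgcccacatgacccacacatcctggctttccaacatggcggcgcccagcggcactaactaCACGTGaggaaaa
Pno1, chr11:17211540-17211839, minus strand, GRCm38.p6: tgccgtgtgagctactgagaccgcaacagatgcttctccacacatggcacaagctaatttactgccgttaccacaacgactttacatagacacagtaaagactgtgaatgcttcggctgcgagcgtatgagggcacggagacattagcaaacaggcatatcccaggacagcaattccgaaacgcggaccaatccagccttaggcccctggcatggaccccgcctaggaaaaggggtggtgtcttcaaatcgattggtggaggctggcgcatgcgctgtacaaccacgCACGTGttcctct

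Cell division lists had the lowest medians of all 59. All 41 DNA replication genes (median -2.69), all 39 mitosis genes (median -3.49) and all 42 replication-dependent histone genes (median -2.97) were down at least 2-fold. Cdc6, which loads the replicative helicase on origins, went from 6.82, 6.73 and 6.92 log2 CPM to 2.44, 2.31 and 2.75 (-4.32, SE 0.129, adjusted p = 2.72e-13). The DMSO samples of Cdc6 lay more than 3 log2 units above every DOX sample. Top2a, the topoisomerase of dividing cells, went from 48804, 49462 and 41239 reads to 2700, 1848 and 2397 (-4.01, SE 0.11). The histone gene Hist1h2bb, with 24720, 24934 and 14645 reads under DMSO and 875, 538 and 813 under DOX, fell by 4.51 (SE 0.193). Histone genes of 1 class are near-identical copies, so reads may be split among them. Of the 12 replacement histones, which are made outside S phase, 7 fell and 1 rose, with H2afx at -3.15 and H3f3b at 0.50 (SE 0.0841, adjusted p = 6.64e-05).

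Among the regulators of the cycle, 17 of 20 cyclin, CDK and CDC25 genes fell and 1 rose. The cyclin B gene Ccnb2 went from 1183, 1083 and 989 reads to 46, 23 and 21 (-4.92, SE 0.387), Ccne2 fell by 3.83 and Cdk1 by 3.47. The D cyclins, which answer to growth signals, did not follow: Ccnd1 was at 8.06, 7.93 and 8.03 and then 7.68, 7.89 and 7.73 (-0.24, SE 0.168, adjusted p = 0.221, and 0.0327 with preGTS1 fitted alone), and Ccnd2 went up from 2796, 2313 and 2128 reads to 3273, 3006 and 3902 (0.83, SE 0.103, adjusted p = 2.94e-06). Of 20 RB, E2F and DREAM complex genes, 16 fell, including E2f8 (-3.73), Mybl2 (-3.34) and Foxm1 (-2.19), and the 1 that rose was Rb1 itself (0.55, SE 0.183, adjusted p = 0.0139), a call lost without DMSO replicate 3, DOX replicate 1 or DOX replicate 3 (adjusted p = 0.083, 0.0532 and 0.0504). The inhibitor Cdkn1b (p27) rose from 6.85, 6.82 and 6.69 to 8.42, 8.46 and 8.51 (1.68, SE 0.0696, adjusted p = 7.36e-12), Cdkn1a (p21) rose by 1.66 from 29, 32 and 34 reads to 93, 73 and 74, and Cdkn2a by 0.56. Cdkn2c (p18) fell from 850, 728 and 744 reads to 313, 321 and 287 (SE 0.114). Of 27 FOXO and growth arrest genes 17 rose and 0 fell (median 1.02), among them the mitophagy kinase Pink1 (1.81), Btg1 (1.32), Foxo3 (1.22) and Txnip, an inhibitor of thioredoxin and glucose uptake (1.10).

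DNA repair fell with replication except for 1 gene. Of 28 genes of alkylation, mismatch and crosslink repair, 27 fell, from Fancb (-4.15, a gene that overlaps Mospd2) over Brca1 (-3.71, SE 0.14) to Mpg (-0.34). Mgmt, which removes alkyl groups from guanine, was the exception, with 89, 82 and 99 reads under DMSO and 128, 192 and 141 under DOX, or 2.03, 1.93 and 2.27 against 2.82, 3.57 and 3.10 log2 CPM (1.09, SE 0.2, adjusted p = 0.000169). All 3 DOX samples lay above all DMSO samples, on few reads. Alkbh2, which also repairs alkylated bases, fell by 2.53.

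The promoters of the mitosis list share letters that the comparison did not use. The CHR element TTTGAA was in 27 of 38 mitosis windows (71.1%) against 12.1% of all windows, and the NF-Y box CCAAT in 30 of 38 (78.9%) against 38.2%. In DNA replication windows the E2F site TTTCCCGC was in 7 of 39 (17.9%) against 2.0%, and CCAAT in 61.5%. In synaptic vesicle windows TTTGAA was in 18.9% and TTTCCCGC in 0 of 37. Ccnb2 and Hmmr, a spindle protein gene that fell by 4.33, are shown for the mitosis list, with windows that held both motifs. Each has TTTGAA just after the start (base 5 in Ccnb2 and base 9 in Hmmr), preceded by 3 and 5 NF-Y boxes. Ccnb2 has a further TTTGAA at base -167. Capitals mark the CHR element and the NF-Y box, which reads ATTGG where it lies on the other strand. Cdc6 is shown for its E2F site, which reads GCGGGAAA on the gene's strand at base -138.
Ccnb2, chr9:70421505-70421804, minus strand, GRCm38.p6: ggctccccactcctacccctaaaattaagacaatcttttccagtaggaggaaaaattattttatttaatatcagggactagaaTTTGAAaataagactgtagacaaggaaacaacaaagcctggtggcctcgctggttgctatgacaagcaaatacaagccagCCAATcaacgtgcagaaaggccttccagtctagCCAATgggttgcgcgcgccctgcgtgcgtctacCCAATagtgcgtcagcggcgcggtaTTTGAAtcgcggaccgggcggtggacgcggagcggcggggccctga
Hmmr, chr11:40733388-40733687, minus strand, GRCm38.p6: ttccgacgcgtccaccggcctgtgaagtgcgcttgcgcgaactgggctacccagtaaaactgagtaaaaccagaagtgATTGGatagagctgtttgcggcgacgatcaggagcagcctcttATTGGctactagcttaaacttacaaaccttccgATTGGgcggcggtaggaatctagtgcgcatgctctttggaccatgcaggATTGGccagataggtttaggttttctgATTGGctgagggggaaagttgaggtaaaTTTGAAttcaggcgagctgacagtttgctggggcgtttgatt
Cdc6, chr11:98907901-98908200, plus strand, GRCm38.p6: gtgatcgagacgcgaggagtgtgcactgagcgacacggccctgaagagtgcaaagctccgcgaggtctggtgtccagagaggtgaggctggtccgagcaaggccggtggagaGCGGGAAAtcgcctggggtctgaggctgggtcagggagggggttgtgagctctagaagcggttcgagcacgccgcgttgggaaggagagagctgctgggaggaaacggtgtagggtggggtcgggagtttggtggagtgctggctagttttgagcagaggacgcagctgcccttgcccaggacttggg

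In metabolism most glycolysis genes fell, while isoforms known from nerve cells rose. Of 27 glycolysis genes 17 fell and 6 rose (median -1.40). Ldha, which makes lactate, went from 11.05, 10.96 and 11.18 log2 CPM to 7.96, 8.07 and 7.88 (-3.10, SE 0.109, adjusted p = 1.25e-12), Pgk1 fell by 3.42, Gapdh by 2.46 and the lactate carrier Slc16a1 by 2.61. Eno1, the general enolase, went from 10.90, 10.61 and 10.24 to 7.42, 7.46 and 7.54, while Eno2, the neuronal enolase, had 59, 40 and 65 reads under DMSO and 252, 266 and 273 under DOX (2.63, SE 0.15, adjusted p = 3.43e-10). Aldoa (-1.75) and the brain aldolase Aldoc (2.53) parted in the same way. Of 77 nuclear genes of the respiratory chain 56 fell and 1 rose (median -0.61), with cytochrome c (Cycs) at -2.11. Of the 15 mitochondrially encoded genes 7 rose (46.7%, against 34.5% of all genes) and 4 fell (26.7%, against 33.7%), and 8 and 2 with total-read scaling. The cytochrome oxidase subunit mt-Co3 went from 8.50, 8.30 and 8.26 to 9.51, 9.43 and 9.77 (1.22, SE 0.119). The 4 that fell were mt-Nd6 (-0.97), mt-Nd1 (-0.55), mt-Cytb (-0.44) and mt-Nd5 (-0.43), and the last pair of calls was also lost without several single samples (adjusted p from 0.0518 to 0.13).

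Of 40 cholesterol and fatty acid genes 30 fell and 6 rose (median -0.92). Fdps, an enzyme of the synthesis pathway, fell by 2.11. The genes that rose most were the cholesterol exporters Abca1 (2.65, 3.02 and 2.59 to 5.71, 5.67 and 5.60, which is 2.91, SE 0.124) and Abcg4 (1.58). Abcg1, another exporter, was at 1.69 and did not pass the shared fit (adjusted p = 0.0779), but passed with the replicate block (0.0491), with preGTS1 alone (2.28e-05) and by edgeR (3.73e-06) and DESeq2 (3.16e-12). Protein and RNA handling fell: 33 of 36 proteasome genes (median -1.05), 20 of 23 chaperone genes (2 up, median -1.55, Hspd1 -3.05), 48 of 50 splicing proteins (median -1.18, Srsf7 -2.17) and 37 of 38 nuclear transport and lamina genes (median -1.52). The importin Kpna2 fell by 3.48 and the lamin of dividing cells Lmnb1 by 2.46, and Lmna, the A-type lamin, was the 1 that rose (0.92, SE 0.157).

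Most lysosome and autophagy genes rose. Of 48, 38 rose and 4 fell (median 0.69), including the sphingolipid activator Psap (8.28, 8.30 and 8.45 to 9.79, 9.91 and 9.74, which is 1.47, SE 0.0793), progranulin Grn (1.56), Sqstm1 (1.28) and the autophagosome protein Map1lc3a (1.81). Tfeb, the transcription factor of lysosomal genes, rose by 1.42 from 101, 73 and 98 reads to 177, 245 and 159, and its relative Mitf fell by 1.15. The 4 decreases were Atg9b (-3.88), Mitf, the galactosidase Gla (-0.74) and Becn1, which starts autophagosome formation (-0.28, SE 0.0791). The letters CACGTG, to which TFEB also binds, were in 13 of 47 lysosome windows (27.7%), a share above that of ribosome assembly windows, although the lists moved in opposite directions. Atp6v0d1, a proton pump subunit gene that rose by 1.10, is shown for this list. Its E-box (capitals) lies across the transcription start, from base -3.
Atp6v0d1, chr8:105566015-105566314, minus strand, GRCm38.p6: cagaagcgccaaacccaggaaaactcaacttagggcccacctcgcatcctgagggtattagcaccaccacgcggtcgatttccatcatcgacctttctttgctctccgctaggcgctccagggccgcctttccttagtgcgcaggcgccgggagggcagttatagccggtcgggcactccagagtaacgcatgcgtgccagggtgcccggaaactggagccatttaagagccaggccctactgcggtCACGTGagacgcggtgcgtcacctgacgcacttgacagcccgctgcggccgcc

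**Figure D2:**
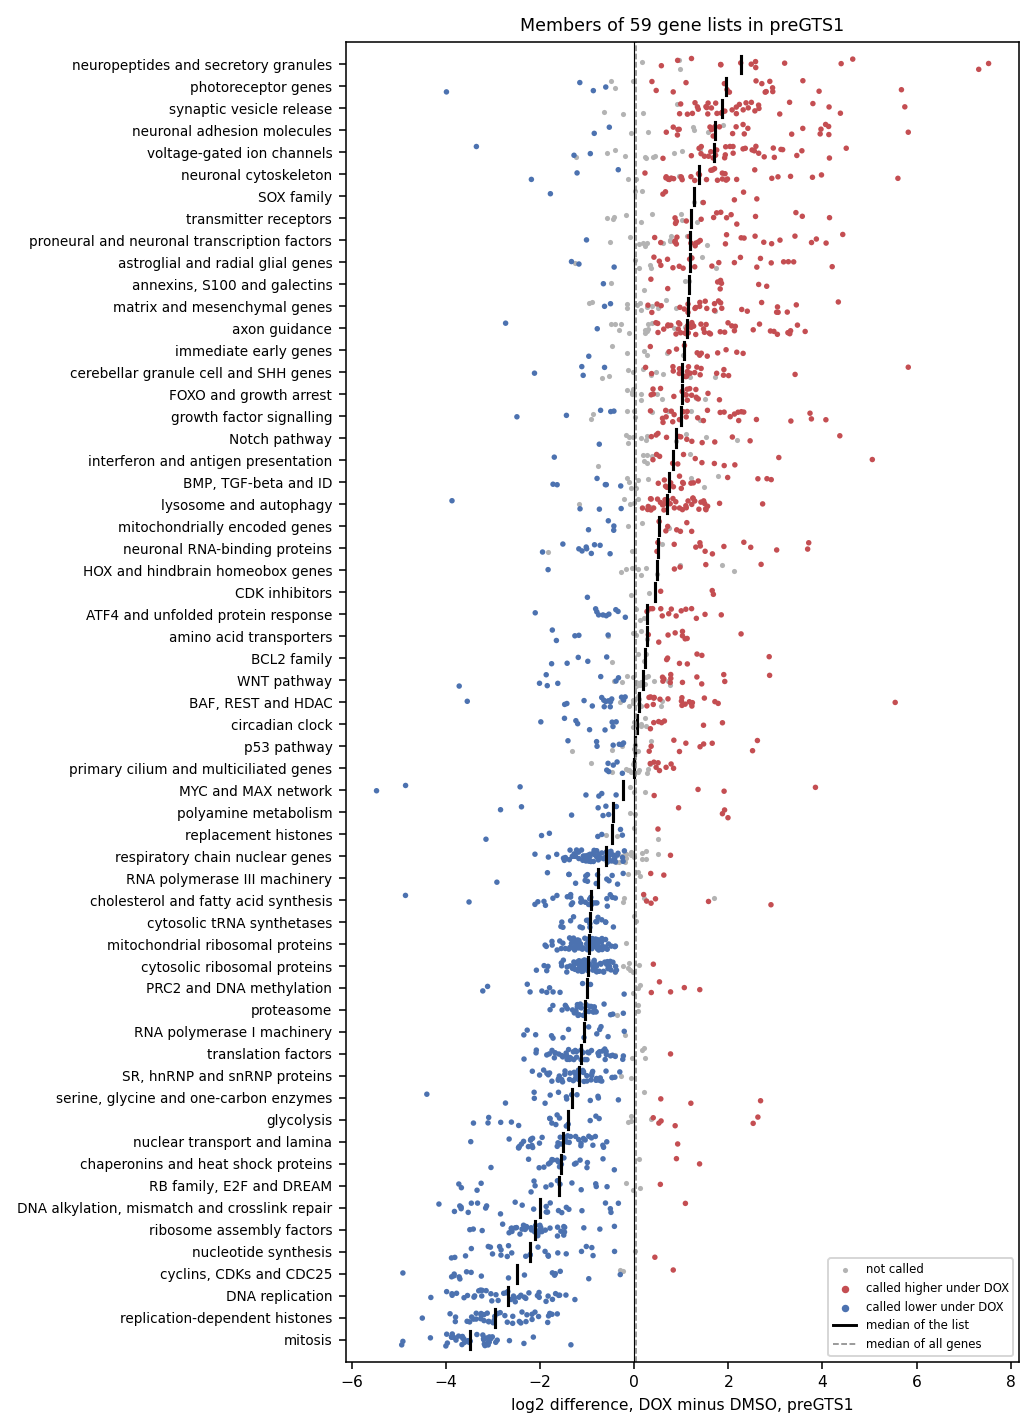
Log2 difference between DOX and DMSO in preGTS1 (horizontal axis) for each member of 59 gene lists (rows, ordered by median), red and blue where a member passed the test upward or downward and grey where it did not; black bars are list medians and the dashed line the median of all genes. Mitosis, histones and DNA replication lie lowest with every member down, and neuropeptides lie highest with no member called down.

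More nerve-cell genes rose than fell in each class examined. Of 38 proneural and neuronal transcription factors 25 rose and 1 fell (Bcl11a, -1.02), with a median of 1.19. Nhlh1, a helix-loop-helix factor of newly born neurons, went from 2.31, 2.32 and 2.15 log2 CPM to 6.26, 6.56 and 6.18 (4.08, SE 0.137, adjusted p = 8.43e-13). Every DOX sample lay more than 3 log2 units above every DMSO sample. Scrt1, a repressor of neural stem cell genes, rose by 4.43 from 12, 4 and 5 reads, the thyroid hormone receptor Thrb by 3.87, St18 by 3.77, Neurod4 by 3.42 and Neurod1 by 1.31 (SE 0.0846).

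Cytoskeletal genes of neurites had 32 of 38 up and 3 down (median 1.38). Doublecortin (Dcx), a marker of migrating young neurons, went from 3.58, 3.63 and 3.30 to 7.39, 7.03 and 7.46 (3.79, SE 0.277), and Mapt (tau) from 2.53, 2.72 and 2.45 to 6.50, 6.59 and 6.55 (3.98, SE 0.148). The transport kinesin of neurons Kif5a rose by 3.05. The 3 decreases were Tuba4a (-2.19), the heavy neurofilament Nefh (-1.22) and Kif5b, the general form of the kinesin (-0.34, SE 0.0839).

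The synapse followed. Of 38 synaptic vesicle genes 34 rose, 32 at least 2-fold, and 0 fell (median 1.86). Snap25, part of the fusion machinery, went from 3.03, 3.59 and 2.71 to 6.99, 6.87 and 6.86 (3.80, SE 0.158), and Syn1 rose by 4.14, the active zone scaffold Bsn by 4.38 and the clamp Cplx2 by 3.30. Slc17a6, which fills vesicles with glutamate, had 3, 0 and 2 reads under DMSO and 59, 40 and 74 under DOX. Rims1 was at -0.65 and did not pass the test (adjusted p = 0.457, against 0.00117 with preGTS1 alone and 0.00353 by edgeR), although its DOX samples all lay below its DMSO samples. Of 46 ion channel genes 32 rose and 3 fell (median 1.70), the sodium channel Scn3a by 4.51 and the potassium channel Kcna2 by 3.56 upward and the potassium channel Kcnk5 by 3.36 downward (101, 120 and 104 reads to 16, 3 and 11). Transmitter receptors had 15 of 24 up and 0 down (median 1.21). They include glutamate (Gria2, 3.57) and acetylcholine receptors (Chrnb2, 3.44, SE 0.105).

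Wiring genes rose too. Of 61 axon guidance genes 45 rose and 2 fell (median 1.12). The repellent Slit1 went from 2.32, 2.29 and 2.58 to 5.77, 6.17 and 5.66 (3.47, SE 0.181), and the receptors Unc5c (3.63), Plxna4 (3.30), Nrp1 (3.27) and Dcc (2.53) rose. The ephrin receptor Epha8 fell by 2.74 (SE 0.18). Adhesion molecules had 23 of 31 up and 2 down (median 1.71). Cadm3 went from 4.87, 4.60 and 4.87 to 8.66, 8.91 and 8.61 (3.95, SE 0.0957), and L1cam rose by 3.97 and Lrrtm2 by 4.14.

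Neuropeptide and secretory granule genes had the highest list median, 2.26, with 14 of 17 up and 0 down. The granule protein Chgb went from 2.87, 2.44 and 2.52 to 7.25, 7.22 and 7.30 (4.64, SE 0.113, adjusted p = 7.09e-14), and Scg2 had 28, 26 and 30 reads and then 545, 384 and 502. The peptide gene Nts had 0, 0 and 2 reads under DMSO against 103, 68 and 94. The prohormone convertase Pcsk2 rose by 2.49 and the processing enzyme Cpe by 1.22. The hormone precursor Pomc stayed within its spread (0.84, 0.23 and 0.78 against 0.42, 1.48 and 0.43, adjusted p = 0.897).

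Among RNA-binding and chromatin proteins, some related genes changed in opposite directions. Of 27 RNA-binding proteins linked to neuronal splicing 14 rose (51.9%) and 10 fell (37.0%). Ptbp1, which blocks neuronal exons, went from 8.06, 8.05 and 8.26 to 6.59, 6.66 and 6.55 (-1.52, SE 0.075), Srrm4, which promotes neuronal microexons, rose by 2.48, Celf5 by 3.71 and Nova1 by 2.33, and Ptbp2, the neuronal relative, fell by 1.11. Of 47 BAF, REST and HDAC genes 20 rose (42.6%) and 16 fell (34.0%), near the 34.5% and 33.7% of all genes. In the BAF chromatin complex, the subunit of dividing progenitors Actl6a went from 2958, 3276 and 3219 reads to 1056, 856 and 873 (-1.43, SE 0.0792), while its neuronal replacement Actl6b went from 6, 17 and 7 to 371, 365 and 298 (5.55, SE 0.481). Ss18 fell by 1.07 and its neuronal replacement Ss18l1 rose by 1.01. Rest, the repressor of neuronal genes, fell by 0.61 (SE 0.0993). Of 20 Polycomb and DNA methylation genes 12 fell and 5 rose: Dnmt1, which copies methylation after replication, fell by 2.28, its partner Uhrf1 fell by 3.12, Ezh2 fell by 1.10, and the de novo enzyme Dnmt3a rose by 1.39.

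**Figure D3:**
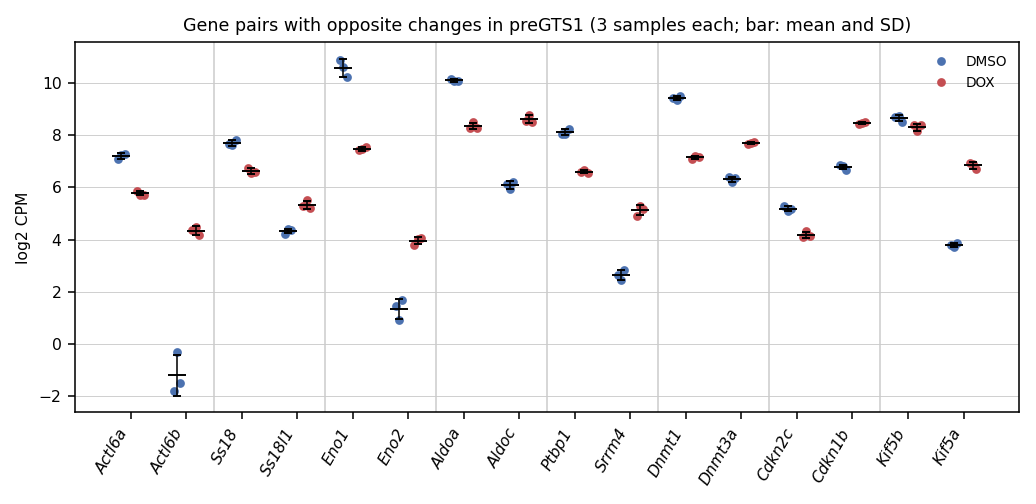
Levels in log2 CPM (vertical axis) of 8 pairs of related or functionally paired genes in the 3 DMSO (blue) and 3 DOX (red) samples of preGTS1, with mean and SD as black bars; the pairs were chosen after their values were seen. In each pair the first gene lies lower and the second higher in all DOX samples, with the smallest change in Kif5b (-0.34, not called with total-read scaling).

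Photoreceptor genes, a program of the retina and pineal gland that Group 3 medulloblastomas are known to express, rose in part. Of 48 listed, 24 were in the table, 17 rose and 4 fell (median 1.94). Crx, the homeobox factor of photoreceptors, went from 4.32, 4.23 and 4.12 to 6.17, 6.11 and 6.12 (1.91, SE 0.0861), and Otx2, which acts above it, rose by 0.38 (SE 0.0704). Rax, an eye field factor, had 0, 0 and 1 reads under DMSO and 19, 40 and 10 under DOX. Rpgrip1, a protein of the photoreceptor cilium, went from 13, 20 and 19 reads to 214, 188 and 227 (3.93, SE 0.276), and the retinoid carrier Rbp3 rose by 2.80 and the phosphodiesterase subunit Pde6g by 2.88. The 4 decreases were Guca1a (20, 19 and 13 reads to 1, 2 and 0), the cone transducin Gnat2 (-1.16), Aipl1 (-0.87) and Sag (-0.61), which missed the threshold in most alternatives (edgeR adjusted p = 0.0741, DESeq2 0.11). Of 20 photoreceptor windows, 10 held TAATCC, the letters bound by CRX and OTX2, against 5.8% of all windows, and 10 held CCAAT. Rpgrip1 and Rbp3 are shown for this list. Their single site, GGATTA on the gene's strand (capitals), lies just before the start, from base -28 and base -69.
Rpgrip1, chr14:52110653-52110952, plus strand, GRCm38.p6: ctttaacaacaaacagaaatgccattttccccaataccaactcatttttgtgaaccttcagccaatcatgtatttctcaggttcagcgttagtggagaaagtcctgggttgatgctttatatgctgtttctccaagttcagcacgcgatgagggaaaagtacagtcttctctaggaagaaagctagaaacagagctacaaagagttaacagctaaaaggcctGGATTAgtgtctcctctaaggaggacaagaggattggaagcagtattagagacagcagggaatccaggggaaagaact
Rbp3, chr14:33953753-33954052, plus strand, GRCm38.p6: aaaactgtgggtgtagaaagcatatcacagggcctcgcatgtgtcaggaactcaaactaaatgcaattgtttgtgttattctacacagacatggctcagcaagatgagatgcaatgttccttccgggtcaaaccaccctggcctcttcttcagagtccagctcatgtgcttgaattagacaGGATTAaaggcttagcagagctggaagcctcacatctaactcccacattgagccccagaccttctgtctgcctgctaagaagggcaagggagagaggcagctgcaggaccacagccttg

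Genes of cerebellar granule cells and the SHH pathway had 22 of 36 up and 4 down (median 1.02). Reln, secreted by granule cells, went from 8.31, 8.18 and 7.97 to 11.59, 11.54 and 11.59 (3.42, SE 0.0926, adjusted p = 1.37e-13). Neuronal nuclear antigen NeuN (Rbfox3) rose by 1.91. The SHH pathway moved both ways: the receptor and target Ptch1 rose by 1.19 (SE 0.0848) and the target Gli1 fell by 1.09 (SE 0.238). Zic1 lay at 5.95, 6.03 and 5.83 and then 7.48, 7.92 and 7.55 without overlap and did not pass the test over 12 samples (1.71, SE 1.2, adjusted p = 0.233). It passed when preGTS1 was fitted alone (adjusted p = 1.63e-07), since the shared fit takes its spread from GTML3 too.

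Astroglial and radial glial genes had 21 of 32 up and 3 down (median 1.19). Vim, an intermediate filament of radial glia, went from 8.41, 8.38 and 8.29 to 11.08, 11.03 and 11.02 (2.68, SE 0.165), Fabp7 rose by 3.39 and clusterin (Clu) by 4.21, from 54, 43 and 88 reads to 863, 838 and 901. Sox9, the factor named in the study's title, stood at 2.21, 1.13 and 1.66 log2 CPM under DMSO and 3.81, 3.71 and 3.87 under DOX (101, 47 and 65 reads against 254, 212 and 241). The groups did not overlap (2.13, SE 0.325, adjusted p = 2.65e-05). Slc1a2, whose promoter drives the GTML transactivator, went from 5.95, 5.93 and 5.58 to 8.08, 7.99 and 8.17 (2.26, SE 0.109). Of 11 SOX genes 6 rose and 1 fell. Sox4, of immature neurons, rose by 2.32 and Sox21 by 2.60, the latter lost (adjusted p from 0.0529 to 0.0794) without any 1 of the 6 samples. Sox8 fell by 1.78 and the stem cell factor Sox2 overlapped (4.19, 3.95 and 4.21 against 4.01, 4.42 and 3.99, adjusted p = 0.992). The gap junction gene Gja1 fell by 1.34, a call lost without any 1 of the samples but DOX replicate 3 (adjusted p from 0.0778 to 0.111).

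In the Notch pathway 13 of 25 genes rose and 1 fell (median 0.89). Hes5, a Notch target that holds progenitors undifferentiated, went from 4.69, 4.86 and 5.05 to 7.13, 7.64 and 7.21 (2.46, SE 0.336), the receptor Notch1 rose by 1.71 and the neuronal ligand Dner by 4.37 (SE 0.114). The ligand Jag1 had 6.74, 6.73 and 6.72 and then 8.85, 8.96 and 8.92, which did not overlap and did not pass the shared fit (2.18, adjusted p = 0.185) but passed with preGTS1 alone (adjusted p = 1.43e-09). Of 32 BMP, TGF-beta and ID genes 17 rose and 6 fell (median 0.73). Id2, an inhibitor of helix-loop-helix factors, went from 3.13, 3.25 and 3.32 to 6.03, 6.08 and 6.05 (2.82, SE 0.168), Id4 rose by 2.91 and the antagonist follistatin (Fst) by 2.63. In the WNT pathway 12 of 36 rose (33.3%, against 34.5% of all genes) and 8 fell (22.2%, against 33.7%), so the share that rose was that of genes at large. The receptor Fzd1 rose by 2.88 (SE 0.114) and the feedback target Axin2 by 1.43, and Sfrp4, a secreted antagonist, fell by 3.72 and the nuclear effector Lef1 by 1.63.

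Growth factor signalling had 28 of 42 up and 5 down. Among receptors Fgfr3 went from 3.45, 3.35 and 3.48 to 7.09, 7.37 and 7.12 (3.77, SE 0.136), Pdgfra from 140, 48 and 64 reads to 829, 723 and 855 (3.74, SE 0.296) and Ret from 36, 28 and 51 to 608, 476 and 432 (4.07, SE 0.179). Kit fell from 5.09, 5.11 and 5.15 to 2.45, 2.63 and 2.78 (-2.50, SE 0.0856). The feedback inhibitors Dusp4, Dusp6 and Spry2 rose by 3.33, 2.04 and 2.21. Of 19 immediate early genes 12 rose and 1 fell, led by Nr4a3 (2.31) and Jun (2.18, SE 0.0867). Matrix and mesenchymal genes had 28 of 43 up and 2 down (median 1.14), with Col6a1 from 4.28, 4.11 and 4.16 to 7.27, 7.25 and 7.21 (3.06, SE 0.0806) and the proteoglycan Spock1 from 2, 4 and 6 reads to 63, 62 and 65. Annexins, S100 proteins and galectins had 8 of 13 up and 1 down (Lgals1 1.77).

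Markers of other cell types were checked for this line. All 9 neuronal markers were in the table and rose, from a summed 408.8 to 432.4 CPM under DMSO to 1672.0 to 1764.5 under DOX. Of 13 microglia and macrophage markers 2 were in the table (Cd68 and Tmem119, summed 1.9 to 3.5 and 2.1 to 2.5 CPM, 0 called), of 8 T and NK cell markers 1 (Cd4, 0.5 to 1.1 and 0.7 to 0.9 CPM), and of 8 erythroid and 7 ependymal and choroid plexus markers 0. Of 9 endothelial markers 3 were in the table and 1 rose. That was the VEGF receptor Kdr (49, 60 and 51 reads to 1068, 920 and 1048, or 4.58, SE 0.196), while Pecam1, a defining marker, had 34, 56 and 37 and then 50, 47 and 34. Mural and fibroblast markers had 3 of 5 up and 0 down (summed 117.5 to 164.0 and 272.3 to 284.4 CPM), with the pericyte marker Rgs5 at 0 to 2 reads in every sample. Oligodendrocyte lineage markers had 3 of 5 up and 1 down (35.4 to 43.1 and 96.7 to 119.8 CPM), with Olig2 up by 3.71 and myelin gene Mbp down by 0.80, and astrocyte markers 2 of 3 up and 1 down (184.9 to 215.4 and 434.2 to 491.6 CPM). Over all genes 34.5% were called up and 33.7% down, and counts out of 3 or 5 markers are too small to set against these shares. The part of other cells in the glial, neuronal and matrix results was not tested.

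The single genes that moved most belong to the same themes or to no list. By the rule of the 20 largest called changes in each direction with separate groups and at least 10 CPM in the higher group, increases ran from 7.32 (Ecel1, an endopeptidase of the nervous system) to 4.53 (Tmod1, which caps actin filaments and overlaps Tstd2). Besides genes named above they held Islr2 (5.49, SE 0.118), an axon guidance gene whose locus overlaps 1600029O15Rik. Others were Plch2, a phospholipase C (4.98), Cabp5, a calcium-binding protein of the retina (4.97), Ypel4 (4.88), Gjd2, the main connexin of electrical synapses between neurons (4.83), the receptor phosphatase Ptprt (4.78, SE 0.0836), the T-box factor Tbx2 (4.77), Trim9, a ubiquitin ligase of neurons (4.76), and the syntaxin Stx3 of ribbon synapses (4.63). Ptprt had the smallest adjusted p, 6.2e-15, with 1.29 ± 0.0829 log2 CPM under DMSO and 6.07 ± 0.0932 under DOX (SD, n = 3 each, limma). Agt, the angiotensin precursor made by astrocytes in brain, rose by 4.56. Decreases ran from 2810417H13Rik, a symbol for the PCNA clamp-associated factor, with 4886 reads over the DMSO samples and 0, 6 and 4 in the DOX samples, to Depdc1a (-4.14). They held Car12, a membrane carbonic anhydrase (-5.61), Psrc1, a spindle protein (-4.94), the mitotic kinase Pbk (-4.48), Esco2, which joins sister chromatids (-4.20), the trefoil peptide Tff3 (-4.31) and the corepressor relative Tle6 (-4.23), whose locus overlaps Tle2.

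The response was then set against that of GTML3, whose own test called 10484 genes (34.5% of all genes up and 31.4% down). The difference of the responses, tested as an interaction in the same fit, was higher in preGTS1 for 2718 genes (17.1%) and lower for 4003 (25.1%). With total-read scaling these counts were 3051 and 3058, so the excess of lower responses depends on the scaling. Among the genes whose difference passed in the reported fit, 884 were called in opposite directions in the lines, 421 of them up in preGTS1. For proliferation and ribosome lists the medians had the same sign in both lines. The mitosis median was -3.49 in preGTS1 and -2.77 in GTML3, and 28 of 39 members fell further in preGTS1 with 0 the other way. Of these members, Ccnb2 had 18, 11 and 5 reads in GTML3 under DMSO and Psrc1 had 0, 2 and 0. Both had little room to fall there. For DNA replication the medians were -2.69 and -2.62, and 17 of 41 members responded lower in preGTS1 and 7 higher. Ribosome assembly factors fell further in preGTS1 in 24 of 40 cases (medians -2.11 and -1.78) and glycolysis genes in 17 of 27 (-1.40 and -0.69). Replication-dependent histone genes had medians of -2.97 and -3.24. Of 42, 8 responded higher in preGTS1, near the 17.1% of all genes, and 1 lower, against 25.1% of all genes. Among the glycolysis genes, Ldha was at -3.10 in preGTS1 and -0.49 in GTML3 (difference -2.61, SE 0.154, limma adjusted p = 7.89e-09).

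In neuronal lists more members responded higher than lower in preGTS1. The proneural factors did so in 19 of 38 cases against 2 the other way (medians 1.19 and 0.21), neuropeptide genes in 12 of 17 against 0 (2.26 and 0.63), and axon guidance genes in 29 of 61 against 5 (1.12 and 0.41). Nhlh1 rose by 4.08 in preGTS1 and 1.18 in GTML3 (difference 2.90, SE 0.193, adjusted p = 2.52e-08) and Stmn2, a microtubule regulator of growing axons, by 5.60 and 1.28 (4.33, SE 0.494). Kif5a did not pass in GTML3 (-0.07) and the difference did (3.12, SE 0.221). Growth factor genes were higher in 19 of 42 cases against 4. Fgfr3 rose by 3.77 in preGTS1 and fell by 1.03 in GTML3 (4.80, SE 0.192), and Pdgfra rose by 3.74 and fell by 1.26 (4.99, SE 0.418). The inhibitor Cdkn1a rose by 1.66 and fell by 1.18 (2.84, SE 0.306). Notch1 rose by 1.71 and fell by 1.55 (3.26, SE 0.419), and Ccnd2 rose by 0.83 and fell by 0.87 (1.70, SE 0.146).

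In other lists more members responded lower. Photoreceptor genes did so in 13 of 24 cases against 4, although the list medians were close (1.94 and 1.97): Crx rose by 1.91 in preGTS1 and by 4.16 in GTML3 (-2.24, SE 0.122, adjusted p = 4.15e-09). The splicing factor Rbfox1 fell by 1.18 and rose by 3.21 (-4.39, SE 0.247), and Kit fell by 2.50 and rose by 0.84 (-3.33, SE 0.121). Of 27 primary cilium genes 21 responded lower in preGTS1 and 1 higher. In preGTS1 8 rose (29.6%) and 6 fell (22.2%), against 34.5% and 33.7% of all genes, and 13 and 3 with total-read scaling. In GTML3 21 rose and 1 fell. Of 22 circadian clock genes 12 responded lower and 1 higher. In preGTS1 7 rose (31.8%) and 9 fell (40.9%), near the shares of all genes, and 10 and 6 with total-read scaling. In GTML3 18 rose and 2 fell. Replicate 1 of GTML3 under DOX stood apart (chi-square per degree of freedom 58.95 and 83.41 against its replicates, which gave 4.61 with each other), and without it the difference passed for 6871 genes instead of 6721.

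**Figure D4:**
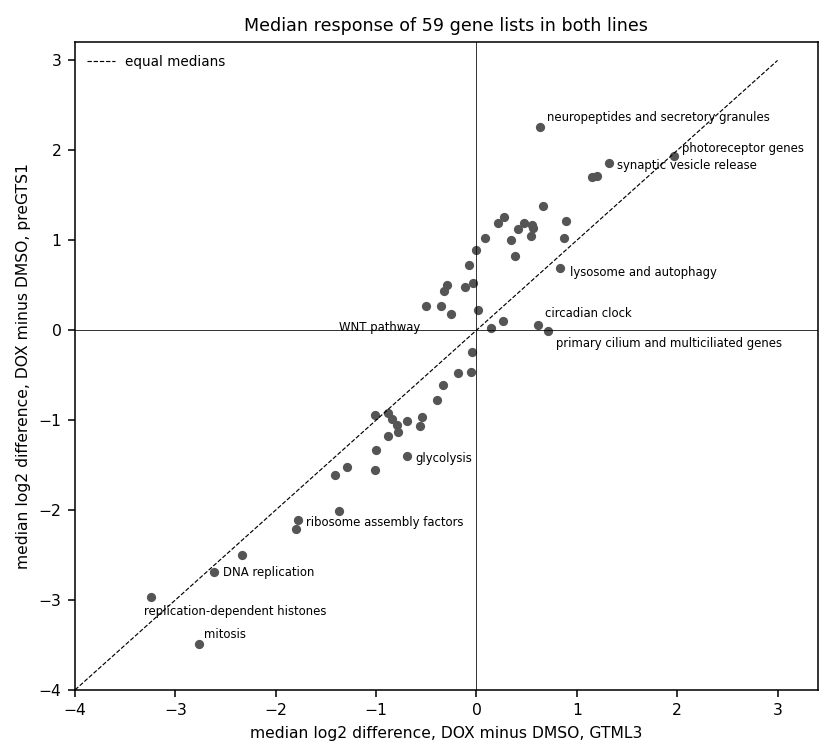
Median log2 difference between DOX and DMSO of 59 gene lists in GTML3 (horizontal axis) and preGTS1 (vertical axis), 1 point per list, with the dashed line where both are equal. Neuropeptides lie above the line (2.26 against 0.63), cilium genes below it (-0.01 against 0.71), and mitosis and ribosome assembly lie lower in preGTS1.

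Promoter accessibility was set beside the RNA. ATAC-seq marks open chromatin by transposase insertion, and regions within 1 kb of a gene's start were used for genes with at least 20 reads. The libraries held 5.848 to 7.773 M reads in regions, and duplicates differed by more than sampling noise (chi-square per degree of freedom 1.871 for DMSO and 1.894 for DOX, against 12.119 and 12.195 between conditions). Their reads were summed per condition and no test was run, so the spread is given as the range over the 4 pairs of a DOX and a DMSO library. Over 10428 genes the median log2 ratio of CPM + 1 between DOX and DMSO was 0.051 (0.043 to 0.054 over library pairs), with 10.8% of the genes at 0.5 or more and 9.7% at -0.5 or less. It was 0.082 (0.065 to 0.092) for the 1771 genes whose RNA was called up at least 2-fold, 0.042 (0.039 to 0.05) for the 2727 not called and -0.028 (-0.043 to -0.02) for the 1825 called down. Ribosome assembly promoters had a median of 0.103 (0.035 to 0.112), with 0 of 37 beyond 0.5 in either direction, although all of these genes' RNA fell. DNA replication promoters had -0.096 and mitosis promoters -0.11, and over library pairs these were closer to 0 (-0.088 to -0.022 and -0.1 to -0.009). Of these promoters 20.5% and 22.9% were at -0.5 or less, and none of either list was at 0.5 or more. The Ccnb2 promoter was at 6.80 and 7.20 CPM under DMSO and 3.34 and 3.93 under DOX (-0.79). Photoreceptor promoters had the highest median of the 8 lists examined, 0.489 (0.428 to 0.622), with 8 of 18 (44.4%) at 0.5 or more. The Crx promoter, for example, was at 29.13 and 33.58 CPM under DMSO and at 53.50 and 47.71 under DOX. Lysosome promoters had 0.196 (0.112 to 0.24) and synaptic vesicle promoters 0.061 (0.043 to 0.106). Adhesion molecule promoters had -0.111 (-0.223 to -0.119 over pairs, where the median of summed reads need not lie within the range of single pairs), with 37.5% of 24 promoters at -0.5 or less, while 23 of the 31 genes rose in RNA. Single genes, chosen after their values were seen, went with or against their RNA. The promoters of Chgb (0.66), Id4 (0.83) and Actl6b (0.52) were more open under DOX and their RNA rose. The Sox9 promoter had 88.58 and 93.27 CPM under DMSO and 65.50 and 64.64 under DOX (-0.48), and Myc 37.71 and 45.15 and then 31.61 and 29.24 (-0.44), while RNA of both rose. The Mycn promoter was at 32.98 and 37.31 and then 47.42 and 52.50 (0.49) while the Mycn RNA value fell. Whether that RNA value holds reads of a MYCN transgene cannot be told, so promoter and RNA may not be of the same locus.

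**Figure D5:**
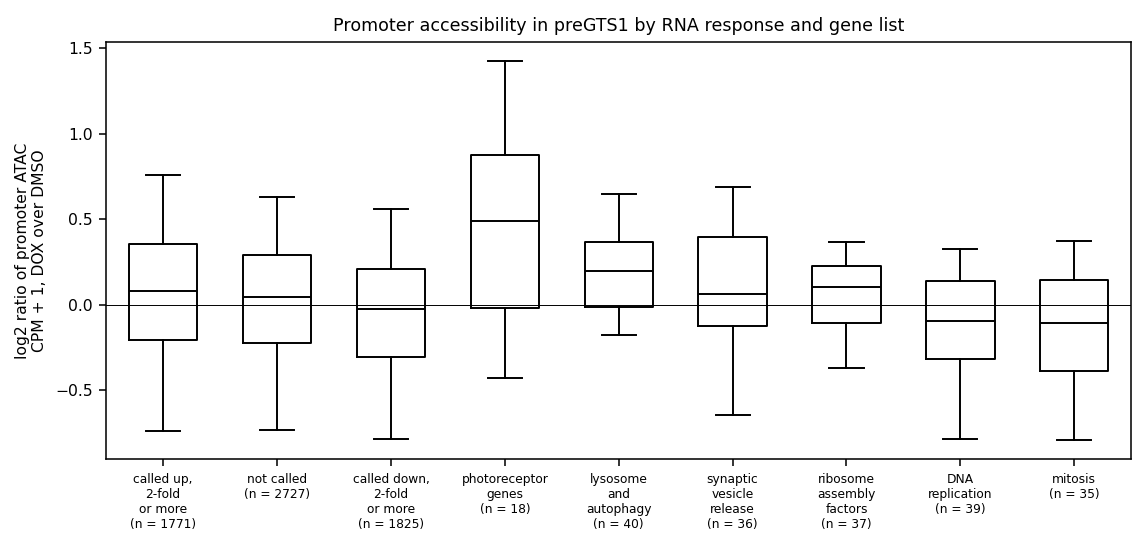
Log2 ratio of promoter ATAC CPM + 1, DOX over DMSO, in preGTS1 (vertical axis) for genes grouped by RNA response and by list, as boxes from the lower to the upper quartile with the median as a line and whiskers at the 5th and 95th percentiles over genes, which are not replicates. Photoreceptor promoters have the highest median (0.489), and the boxes of the 2-fold groups overlap.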

How the data were processed

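RNA was read on Ion Torrent libraries, per the labels' protocols. The authors deposited log2 CPM per gene, on effective library sizes, and CPM per region for ATAC-seq. Tools named in the submitters' processing notes, without roles, are Bowtie2 2.2, STAR 2.4.0, MACS2, edgeR, limma and Subread 1.5.2, and the builds are mm9 and mm10. Samples were matched to columns by title. Steps of the log2 values gave whole reads for 100% of values (tolerance 0.1), and 0 reads is -6.16. All 15926 genes had at least 1 CPM in 3 of 12 samples.

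Log2 CPM of the 12 treated samples were fitted with limma 3.58.1 in R 4.3.3, with trend and robust, 1 mean per group and Benjamini-Hochberg adjustment, and the spread was shared by all groups. edgeR 4.0.16 and DESeq2 1.42.0 on the recovered counts of the deposited table were alternatives. The code was tested on simulated data. ATAC regions carry mm9 coordinates. Named genes were the genes behind the model, members of the lists, the 20 largest changes in each direction with separate groups and at least 10 CPM in the higher group, and the 10 largest differences between lines in each direction. The members and lists were chosen with earlier results of these data known. The other RNA and single-cell samples were not used here.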

Additional observations from a re-analysis of the deposited data

Results flagged for a closer look

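The DOX response differed between preGTS1 and GTML3 with calls of opposite sign for 884 genes, by the interaction test in the same limma fit (adjusted p under 0.05). Of the 268 genes named in the text, 29 were among them. Differences are log2 responses of preGTS1 minus those of GTML3.

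Higher in preGTS1 and lower in GTML3 under DOX were the cell cycle genes Cdkn1a (difference 2.84), Ccnd2 (1.7) and Cdkn2a (1.52). The same held for the signalling genes Pdgfra (4.99), Fgfr3 (4.8), Fst (4.62), Id2 (3.57), Notch1 (3.26) and Ptch1 (1.45). It also held for the neuronal genes Unc5c (4.91), Nova1 (2.62) and Neurod1 (1.67) and for the death protector Bcl2 (2.04).

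Lower in preGTS1 and higher in GTML3 were the corepressor Tle2 (-6.31, at a locus that overlaps Tle6), the photoreceptor genes Guca1a (-6.03) and Sag (-2.0), and the neuronal genes Rbfox1 (-4.39), Epha8 (-3.17) and Nefh (-1.7). Others were Kit (-3.33), Lmx1a (-3.2), Ifit2 (-2.7), Hlf (-2.69), Lef1 (-2.16), Gla (-1.53), Mbp (-1.39), Trp53 (-1.12), Mpg (-0.83) and Gnl3l (-0.72).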

How the results depend on the processing

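The counts of called genes, of 2-fold changes, of differences between lines and of lists with more increases than decreases stayed within 1.5 times their value in every alternative run: 9327 to 11451 genes called, 4262 to 5700 at least 2-fold, 5851 to 7723 differences and 32 to 33 lists. Leaving out 1 preGTS1 sample gave 10073 to 10534 called genes. Scaling to total reads, chosen after seeing the data, gave 6651 increases and 4311 decreases, DESeq2 gave 6233 and 5218, and only the circadian list changed side. The 34 differences between lines named here kept their call in all alternatives that gave them, 28 of them under the CPM filter. Genes that missed the threshold changed sign in places: with total-read scaling Max (0.115), Eef2 (0.151) and Cd4 (0.198), with DESeq2 Eef2 (0.018), and with median centring Sox2 (-0.003). Leaving out 1 preGTS1 sample gave -0.381 to 0.255 for Cd4, -0.126 to 0.006 for Eef2, -0.193 to 0.339 for Pomc, -0.119 to 0.094 for Sox2, -0.069 to 0.184 for Polr3gl and -0.174 to 0.864 for Tmem119, none of which passed in the report. The cause of these changes was not tested.

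Deviations from the group means correlated at 0.131, -0.481 and -0.198 for the same replicate number and at -0.472 to 0.502 for different numbers. The same number thus gave no sign of pairing. Whether samples were paired under another numbering cannot be told from 3 samples per group. With the replicate number as a block 10539 genes were called, and the calls of Ubtf (adjusted p = 0.053) and Sag (0.0679) were lost and that of Abcg1 (0.0491) was gained.

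Depth limits genes with few reads, such as Rax, Irf7 and Mgmt. Some falls in GTML3 that make a call opposite to that of preGTS1 also rest on few reads. Notch1 had 39, 14 and 33 reads there under DMSO and 4, 5 and 14 under DOX. Unc5c had 34, 20 and 12 and then 11, 4 and 5, and Fst 28, 41 and 45 and then 9, 7 and 5.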

Other observations

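Lists of stress and survival genes had members called in both directions under DOX, as 34.5% of all genes rose and 33.7% fell. Of 16 BCL2 family genes 7 rose (43.8%) and 5 fell (31.2%), near those shares. The cell death activators Hrk and Bmf rose by 2.87 and 1.33 and the protector Bcl2 by 1.44, while the activators Bnip3 and Bid fell by 1.76 and 1.43. Of 25 p53 pathway genes 10 rose (40.0%) and 7 fell (28%), also near them (median 0.02), and with total-read scaling 3 fell. Plk2 rose by 2.62 and Trp53inp1 by 2.51, while Trp53 itself fell by 0.80 and the nuclease Aen fell by 1.41. Of 27 genes of ATF4 and the unfolded protein response 14 rose (51.9%) and 10 fell (37.0%). The stress factor Ddit3 rose by 1.85 and Trib3 by 1.22, whereas asparagine synthetase (Asns) fell by 0.76, the chaperone Hspa5 fell by 0.67 and Sdf2l1 fell by 2.11. Of 19 amino acid transporters 9 rose (47.4%) and 5 fell (26.3%), with Slc43a2 at 2.27 and the glutamine carrier Slc1a5 at -1.66.

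Of 21 interferon and antigen presentation genes 13 rose and 1 fell (median 0.82). Irf7, which amplifies the interferon response, had 1, 0 and 6 reads under DMSO and 31, 37 and 39 under DOX, Ifi27 rose by 3.07 and the peptide loading gene Tapbp by 2.14, and Ifit2 fell by 1.70. Among circadian genes the clock activator Arntl rose by 1.87 and Hlf, an output factor, fell by 1.99. Of 15 HOX and hindbrain homeobox genes that were measured 4 rose (26.7%) and 1 fell (6.7%), against 34.5% and 33.7% of all genes. Nkx6-1 was at 2.70 (not called without DMSO replicate 2 or DOX replicate 2, adjusted p = 0.0609 and 0.056) and Lmx1a at -1.83 (not called on the log2(CPM + 1) scale, adjusted p = 0.148). Irx3 was at 2.13 and did not pass the shared fit (limma adjusted p = 0.0689), but passed with preGTS1 alone (5.57e-06) and by edgeR (7.44e-06) and DESeq2 (3.06e-14).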
